A study of Mus musculus with 6 samples.

Results

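The 6 long genes of the Dlk1-Dio3 imprinted locus, Dlk1, Rtl1, Dio3, Meg3, Rian and Mirg, were followed in polyA RNA-Seq of mouse embryonic stem cells (mESCs) with a degradable RNA polymerase II and of wild-type mESCs. They were taken by their symbols from count tables of 39017 genes, and all 6 were present in every table. The locus was chosen from earlier results of these same libraries, in which Dio3 was among the genes higher after auxin, so the counts used below also served the choice, and the values of the 6 genes are given as a description and carry no p-value. The study asked how the loss of the polymerase affects cells and chromatin, and whether tagged cells that received no auxin resemble wild-type cells. There were 6 libraries in 3 groups of 2, all labelled as V6.5 mESCs (a hybrid line with C57BL/6 as one parent strain). The study grew its mESCs with irradiated embryonic fibroblasts as feeders and harvested them after 2 passages of these feeders.

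The untreated cells were a Pol II degron line, a clonal line in which the largest polymerase subunit, RPB1, was fused to mAID and GFP, and in which the plant protein OsTIR1 was placed under doxycycline control at Rosa26. These cells had received 1 µg/ml doxycycline for 12 h and no auxin. The auxin-treated cells carried the same alleles and the same doxycycline, and were given the auxin indole-3-acetic acid at 500 µM for 6 h, which directs the tagged protein to degradation. Because auxin removes a protein, the mRNA of the tagged gene does not check the treatment. The wild-type cells had an untagged polymerase, and whether they received doxycycline is not given in the sources used here. Their counts came from a separate table and their extraction notes speak of retinas, so the line, the preparation and the table cannot be told apart in any comparison with them.

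Imprinted genes are expressed mainly from the copy inherited from one parent. At this locus the protein-coding genes Dlk1, Rtl1 and Dio3 are known to be expressed from the paternal chromosome, while the noncoding RNAs Meg3, Rian and Mirg are expressed from the maternal chromosome and carry many microRNAs and small nucleolar RNAs within them. A differentially methylated region between Dlk1 and Meg3 controls both sets, and the maternal noncoding RNAs are known to vary between embryonic stem cell lines. The counts here are not split by allele, so they give the summed output of both chromosomes.

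On mm10, the locus runs on chromosome 12 from the start of Dlk1 at 109452823 to the end of Dio3 at 110281097, a span of 828.3 kb. All but Rtl1 are on the plus strand. Dlk1 has 6 exons, Meg3 starts 88.2 kb from the start of Dlk1 and has 8 merged exons, Rian starts at 151.1 kb and has 19, Mirg starts at 276.9 kb and has 14, and the single exon of Dio3 starts at 826.2 kb. Rtl1, on the minus strand, has 2 exons and lies 136.4 kb from the start of Dlk1, between Meg3 and Rian. Exonic length ranges from 2.03 kb for Dio3 to 18.23 kb for Rian. Of the 100-base stretches of each gene's transcripts, none was shared with another gene except for 3.43% of those of Meg3, which also occur in Gm27000.

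Promoter windows from RefSeq on GRCm38.p6, from 250 bases before to 50 after a start, were read for the genes that had one, and the stretches that hold core motifs are shown for the gene with the largest difference after auxin, Dio3, and for the gene with the highest level, Meg3. The Dio3 stretch is chr12:110279182-110279211, plus strand, and lies within the single exon as GENCODE draws it, since the RefSeq start is 162 bases farther along. The Meg3 stretch is chr12:109540916-109540995, plus strand, and ends at the base before the first of the gene's RefSeq starts. Capitals mark the motif TATAAA, the motif CCAAT and the motif TGACGTCA.
Dio3: CCAATtcaagctttgacTATAAAttgagct
Meg3: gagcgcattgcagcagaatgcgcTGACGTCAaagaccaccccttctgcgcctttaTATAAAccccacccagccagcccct
The TATAAA motif, which the TATA-binding protein can bind, begins 31 bases before the RefSeq start of Dio3 and 25 bases before that of Meg3. Searched on both strands, TATAAA occurs in 13.6% of 32851 promoter windows, CCAAT in 37.4% and the palindrome TGACGTCA, a cAMP response element, in 1.79%. In the Meg3 window the form of TATAAA on the other strand overlaps the marked TATAAA, and a CCAAT stands outside the stretch shown, 100 bases before the start. The Dio3 window likewise holds a CCAAT on the opposite strand, 125 bases before the start. The windows of Dlk1 and Rian hold none of these motifs, and that of Mirg holds only a CCAAT, 184 bases before its RefSeq start. That RefSeq start lies 5217 bases farther along than the GENCODE start of Mirg, so the window lies within the gene as GENCODE draws it. The windows also differ in CpG dinucleotides, with 25 in Dio3, 13 in the Meg3 window shown and 1 in that of its other RefSeq start, 10 in Mirg, 9 in Dlk1 and 0 in Rian. The Dio3 window held more CpG than 81.6% of all windows, and its GC content was 69%.

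Opposite Rtl1, on the plus strand, lie the genes of 6 microRNAs, which are known to be processed from a maternal transcript that runs antisense to Rtl1 and to cut the Rtl1 mRNA. One mature sequence of each is shown because their genes cover the same bases as Rtl1, so that reads of their host transcript could enter its count. An effect of these microRNAs on Rtl1 was not tested. The sequences are from RefSeq on GRCm38.p6, and capitals mark the seed, bases 2 to 8.
mmu-miR-431-5p: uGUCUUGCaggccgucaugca
mmu-miR-433-3p: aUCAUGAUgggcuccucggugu
mmu-miR-127-3p: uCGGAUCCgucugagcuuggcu
mmu-miR-434-3p: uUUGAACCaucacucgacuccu
mmu-miR-432: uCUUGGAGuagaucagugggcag
mmu-miR-136-5p: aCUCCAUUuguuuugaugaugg
No seed is shared between these 6. Along the 6358-base Rtl1 transcript the sites lie in the order miR-136-5p from position 199, miR-432 from 523, miR-434-3p from 965, miR-127-3p from 2642, miR-433-3p from 3749 and miR-431-5p from 5072. All 11 mature sequences of the 6 genes are exactly complementary to the Rtl1 transcript, and all 11 lie within its coding part. By gene identifier, the count tables list 5 of the 6 microRNA genes, each with 0 counts in all 6 libraries, in a polyA library type that does not capture mature microRNAs. A further row has the symbol Mir136, but GENCODE gives its identifier to Mir3071 on the minus strand. That row also has 0 counts throughout. Whether strand was used in counting is not given in the sources used here, so reads of Rtl1 and of the antisense host transcript cannot be told apart.

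Library totals were similar, from 14094022 to 15358714 counts. The 12 pluripotency markers were all detected in every library, with summed levels of 4852 to 5575 CPM (counts per 1000000 after TMM scaling over all libraries) in untreated, 4069 to 4379 in auxin-treated and 7986 to 8072 in wild-type cells. Of 12 feeder fibroblast markers, Lum was at 0 in 5 libraries and Dcn had at most 4 counts, while collagen genes were present, and the list summed to 209.2 to 214.2, 236.9 to 266.8 and 162 to 167.7 CPM in the same order. Of 10 retina markers, Crx and Rcvrn were at 0 throughout. The list summed to 5.914 to 6.139 CPM in untreated, 6.272 to 7.422 in auxin-treated and 8.588 to 8.95 in wild-type libraries. Trophoblast markers summed to 86.37 to 115.7, 116.7 to 121.1 and 38.26 to 41.58 CPM, with Prl3d1 and Tpbpa at 0. In bulk libraries, fewer cells of a type and less RNA per cell cannot be told apart, and the part of feeder or other cells in the levels below was not tested.

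The maternally expressed noncoding RNAs were by far the larger output of the locus. Per kilobase of exon, the untreated cells held Meg3 at 21.21 ± 2.643 CPM per kb (SD, n = 2) and Rian at 13.06 ± 1.392. Dlk1 followed at 2.57 ± 0.147, Dio3 at 1.843 ± 0.163, Mirg at 1.602 ± 0.238 and Rtl1 at 0.2508 ± 0.0488 CPM per kb. Dio3 and Mirg did not differ beyond their spread in the untreated cells, and the other neighbours in the order did. Among the 22705 genes with a count in these cells, 88.3% lay below Meg3, 81.3% below Rian, 54.5% below Dlk1, 50% below Dio3, 48.2% below Mirg and 25.8% below Rtl1.

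The order was different in the other groups. After auxin, Dio3 stood next to Rian at 9.422 ± 0.435 CPM per kb, below Rian at 13.6 ± 0.287 and above Dlk1 at 3.181 ± 0.438, so that the share of genes below it was 78.1%. In wild-type cells, Rian at 11.37 ± 0.154 and Meg3 at 10.98 ± 0.246 CPM per kb stood side by side at the top. Mirg at 1.304 ± 0.138 and Dlk1 at 1.265 ± 0.0609 did not differ beyond their spread there. Rtl1 was lowest of the 6 in every group.

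**Figure D1:**
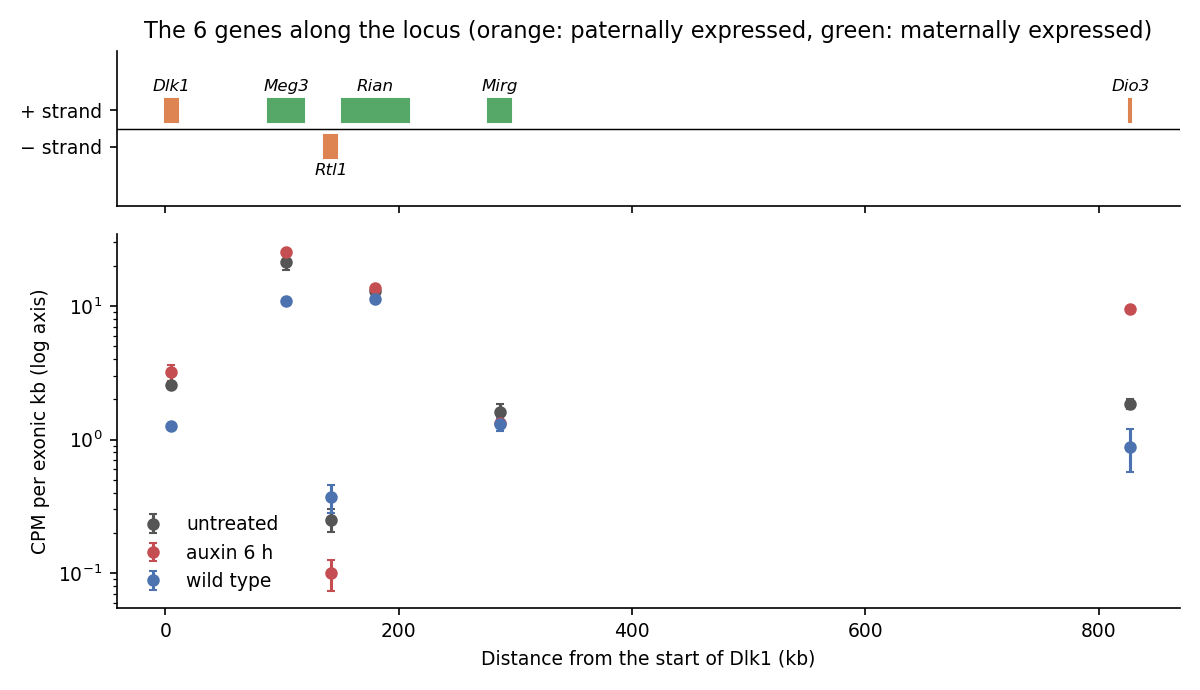
Upper panel, position and strand of the 6 genes as distance in kb from the start of Dlk1, with paternally expressed genes in orange and maternally expressed genes in green. Lower panel, mean level of each gene in CPM per exonic kb on a log axis with SD over 2 libraries (bars); Meg3 and Rian lead in every group, and Dio3, 826.2 kb from the start of Dlk1, stands at 9.422 after auxin against 1.843 in untreated cells.

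Dio3 encodes the deiodinase that inactivates thyroid hormones. It had 57 and 51 counts in the untreated libraries, 295 and 306 in the auxin-treated libraries and 19 and 32 in the wild-type libraries. The 3 groups did not overlap, with every auxin-treated library far above and every wild-type library below the untreated ones. On the CPM scale these were 3.742 ± 0.332 (SD, n = 2), 19.13 ± 0.882 and 1.787 ± 0.633. The fitted difference between auxin-treated and untreated cells was a log2 fold change of 2.37 (SE 0.155), or 5.17-fold, and leaving out any 1 library moved it only between 2.28 and 2.46. For wild-type against untreated cells the log2 fold change was -1.07 (SE 0.295), which rests on few counts and became -0.74 without wild-type replicate 1 and -1.48 without replicate 2.

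Dlk1 encodes a transmembrane protein related to the Notch ligands that is known for restraining adipocyte differentiation. Its counts were 200 and 220 in untreated, 259 and 306 in auxin-treated and 105 and 99 in wild-type libraries. Again the auxin-treated libraries were highest and the wild-type libraries lowest, with no overlap. The log2 fold change was 0.33 (SE 0.128) after auxin, with a range of 0.18 to 0.46 when 1 library was left out. In wild-type cells it was -1.03 (SE 0.147), a level 2.04-fold lower than in untreated cells, and the range without 1 library was -1.09 to -0.97.

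Rtl1 encodes a retrotransposon-derived protein known for its role in the fetal vessels of the placenta. It had 26 and 20 counts in untreated, 12 and 8 in auxin-treated and 39 and 28 in wild-type libraries. The order of the groups was the opposite of that of Dlk1 and Dio3, with auxin-treated libraries lowest and wild-type libraries highest, and the groups did not overlap. The log2 fold change was -1.30 (SE 0.398) after auxin and 0.55 (SE 0.319) in wild-type cells. With so few counts its values ran from -1.60 to -1.05 after auxin and from 0.30 to 0.78 in wild-type cells when 1 library was left out, and Rtl1 did not pass a filter of 10 counts in every library of the auxin comparison.

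Meg3 is a long noncoding RNA whose promoter region is part of the maternal imprinting control of the locus. Its counts were 5984 and 5087 in untreated, 7424 and 7108 in auxin-treated and 2774 and 2890 in wild-type libraries. The groups stood apart, although the untreated libraries differed from each other more than those of the other groups, as 383.6 ± 47.82 CPM against 462.2 ± 4.855 and 198.6 ± 4.45 shows. After auxin the log2 fold change was 0.29 (SE 0.084), with 0.42 without untreated replicate 1 and 0.16 without untreated replicate 2. Wild-type cells had 1.94-fold less, a log2 fold change of -0.96 (SE 0.08).

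Rian, the host of a large array of small nucleolar RNAs, differed least between groups. It had 3671 and 3202 counts in untreated, 4012 and 3784 in auxin-treated and 2913 and 2997 in wild-type libraries. After TMM scaling the auxin-treated libraries, at 251.6 and 244.2 CPM, lay between the untreated libraries at 256.1 and 220.2 CPM, and the wild-type libraries lay slightly lower at 205.3 and 209.3 CPM. The log2 fold change after auxin was 0.08 (SE 0.079), and its sign turned to -0.03 without untreated replicate 2. In wild-type cells it was -0.21 (SE 0.073), or 1.15-fold lower.

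Mirg, which carries a dense cluster of microRNAs, had 185 and 152 counts in untreated, 148 and 158 in auxin-treated and 145 and 126 in wild-type libraries. On the CPM scale both other groups lay below the untreated libraries by a small margin, at 9.74 ± 0.647 after auxin and 9.508 ± 1.005 in wild-type cells against 11.68 ± 1.734. The log2 fold changes were -0.24 (SE 0.153) after auxin and -0.30 (SE 0.162) in wild-type cells. Leaving out untreated replicate 1 moved them to -0.09 and -0.15.

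**Figure D2:**
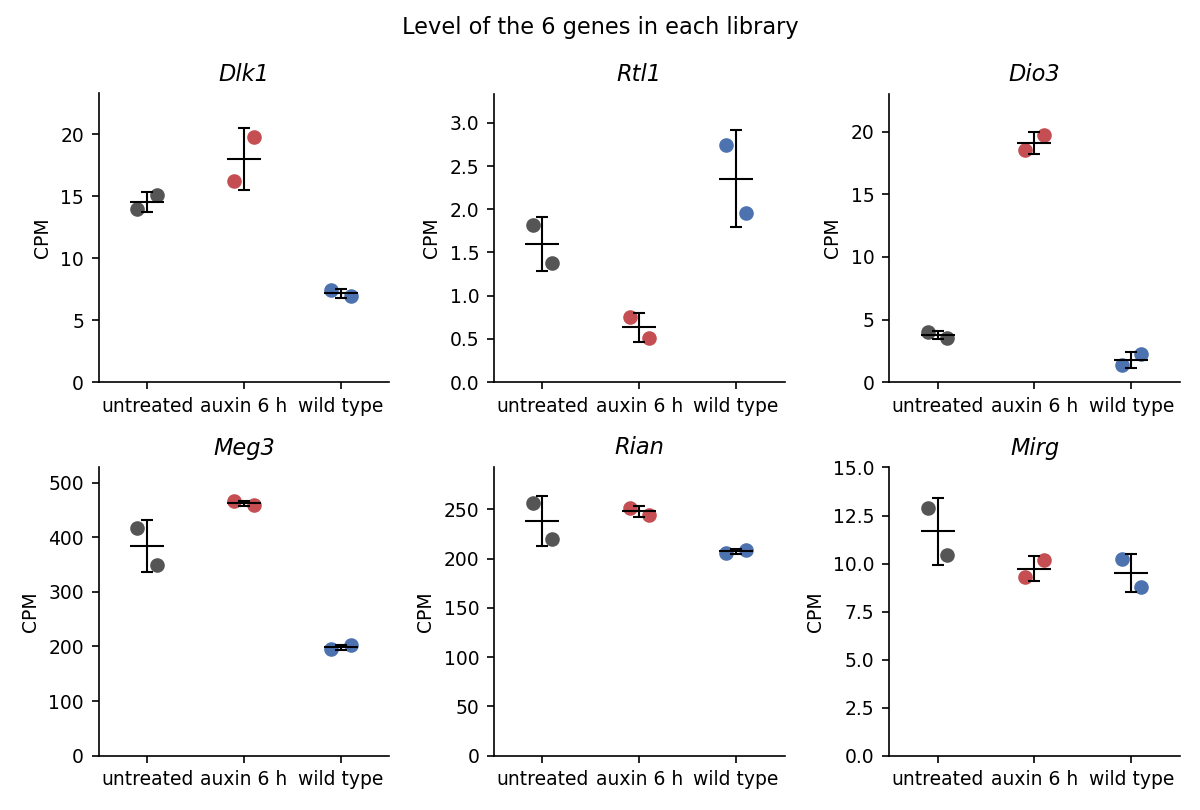
Level of each gene in CPM (counts per 1000000 after TMM scaling; each axis starts at 0) in the 2 libraries of each group, with the mean (horizontal line) and SD (bar). Dio3 at 18.5 and 19.75 CPM after auxin stands far above its other libraries, and Rtl1 shows the opposite order of groups.

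Set against all genes, 1 of the 6 genes passed the threshold after auxin, Dio3 in the higher direction, where 4.2% of 16128 tested genes were called (2.56% higher and 1.64% lower) by edgeR's quasi-likelihood test with a Benjamini-Hochberg adjusted p under 0.05. Since the genes were chosen on these values, nothing is read from that count or from those below. Libraries did not overlap between groups for 3 genes that were higher (Dlk1, Dio3 and Meg3) and 2 that were lower (Rtl1 and Mirg), beside 22.3% and 28.4% of all tested genes. The median log2 fold change of the 6 genes was 0.18, against -0.000378 over all genes. With other settings or a library left out, which members pass is a description of the same values. Dio3 stayed above the threshold in all of them, Meg3 and Rian were also above it without untreated replicate 1, Meg3 in the fit of all 3 groups, and Meg3 higher and Rtl1 lower with the replicate number as a block. The summed feeder and trophoblast markers had the same order of groups as Dlk1, Dio3 and Meg3, highest after auxin and lowest in wild-type cells. That order does not hold for each feeder marker. Of 10 tested, 8 had a log2 fold change above 0 and 2 below after auxin, against 5 and 5 in wild-type cells. Krt7 made most of the trophoblast sum, at 81.82 CPM in untreated cells. The part of these markers in the result was not tested. Of the 12 pluripotency markers, 5 were called lower after auxin and 0 higher by edgeR (5 and 0 by DESeq2, 8 and 0 at an unadjusted p under 0.05). Over all genes, 3245 of the 16128 tested had an unadjusted p under 0.05 after auxin, in either direction.

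In the wild-type comparison, 4 of the 6 genes passed the threshold in the lower direction (Dlk1, Dio3, Meg3 and Rian) and none in the higher, where 60.6% of 15778 tested genes were called, 30.7% lower and 29.9% higher. A call is thus no rare event in this comparison. All 6 genes had non-overlapping libraries, as did 81% of tested genes (40.5% in each direction), with 5 lower and Rtl1 higher. Of 12 pluripotency markers tested, 8 were called higher and 2 lower, and of 10 feeder markers tested, 3 higher and 5 lower. All 3 trophoblast markers tested were lower. Of the 10 retina markers 2 were tested, and both were called higher by edgeR but 0 by DESeq2. The median log2 fold change of the 6 locus genes was -0.63, against -0.00962 over all genes, whose middle range between quartiles was -0.48 to 0.39. Dio3 lost its call with DESeq2 and without wild-type replicate 1, and Rian lost it with DESeq2, with no filter and in 3 of 4 fits that left out a library. The untreated libraries serve both comparisons, and a deviation of theirs would enter each.

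**Figure D3:**
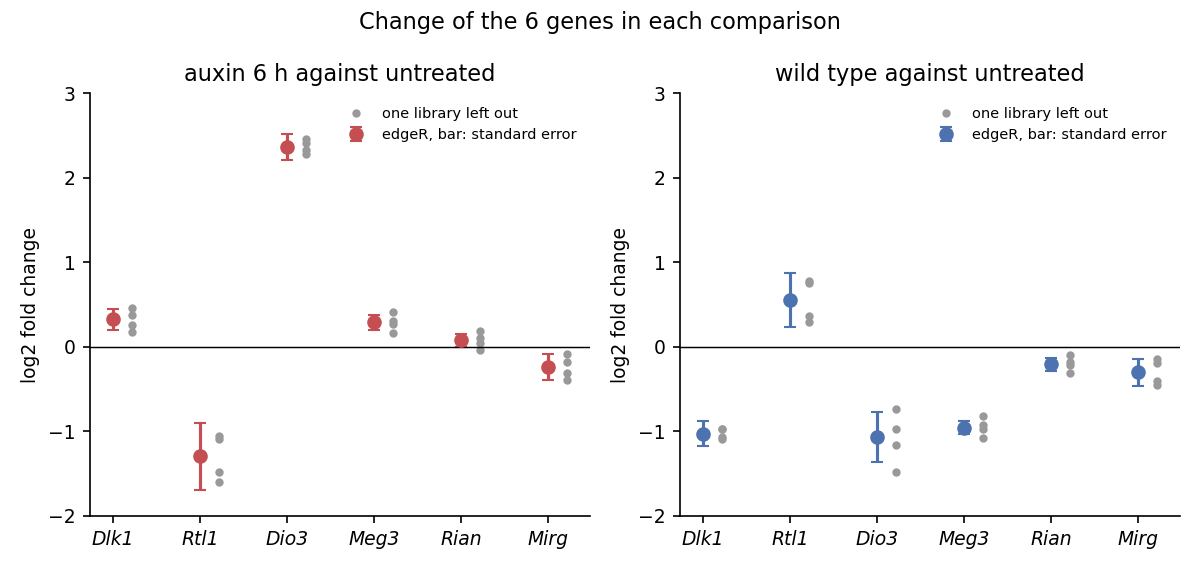
Log2 fold change of the 6 genes after auxin (left) and in wild-type cells (right) against untreated cells from edgeR, with the standard error (bars) and the value with 1 library left out (grey points). After auxin Dio3 alone lies above 2, and in wild-type cells Dlk1, Dio3 and Meg3 lie near -1 while Rtl1 is above 0.

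The scaling of the libraries bears on these values. The mRNAs of the 13 mitochondrial genes took 3357 to 4312 CPM in the degron libraries and 15930 and 15590 CPM in the wild-type libraries. Scaling to them moved the median of all genes by -0.17 after auxin and by -2.10 in wild-type cells, and the share of calls in the higher direction from 61% to 76.3% and from 49.3% to 0.477%. As this scaling shifts all genes alike, the values relative to the median of all genes stay, by construction, close to those given above, with wild-type values of -1.02 for Dlk1, -1.05 for Dio3, -0.96 for Meg3, -0.21 for Rian, -0.30 for Mirg and 0.57 for Rtl1. Without that correction, Rian after auxin became -0.10 and Rtl1 in wild-type cells became -1.54.

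Ratios within a library do not depend on its scaling. The ratio of Meg3 to Rian counts was 1.63 and 1.59 in untreated, 1.85 and 1.88 in auxin-treated and 0.952 and 0.964 in wild-type libraries. The 3 groups were separate, each with close replicates, although both RNAs come from the maternal chromosome and the same strand. Meg3 to Mirg followed the same order, at 32.3 and 33.5, then 50.2 and 45, then 19.1 and 22.9. Rian to Mirg differed less, at 19.8 and 21.1, then 27.1 and 23.9, then 20.1 and 23.8, where wild-type and untreated libraries overlapped.

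Among the paternally expressed genes, the ratio of Dio3 to Dlk1 counts was 0.285 and 0.232 in untreated, 1.14 and 1 in auxin-treated and 0.181 and 0.323 in wild-type libraries. Only the auxin-treated libraries stood apart among these 6. Dlk1 to Meg3, a paternal to a maternal gene, was 0.0334 and 0.0432, then 0.0349 and 0.0431, then 0.0379 and 0.0343, so all 3 groups overlapped. Dlk1 and Meg3 thus differed between groups by similar factors while their own levels did not overlap. The paternally expressed genes together made 2.8% and 3.33% of the 6 genes' counts in untreated, 4.66% and 5.31% in auxin-treated and 2.72% and 2.58% in wild-type libraries. The summed level of the 6 genes was 706.2 and 600.5 CPM, then 762 and 753.2 CPM, then 422.5 and 430.9 CPM.

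**Figure D4:**
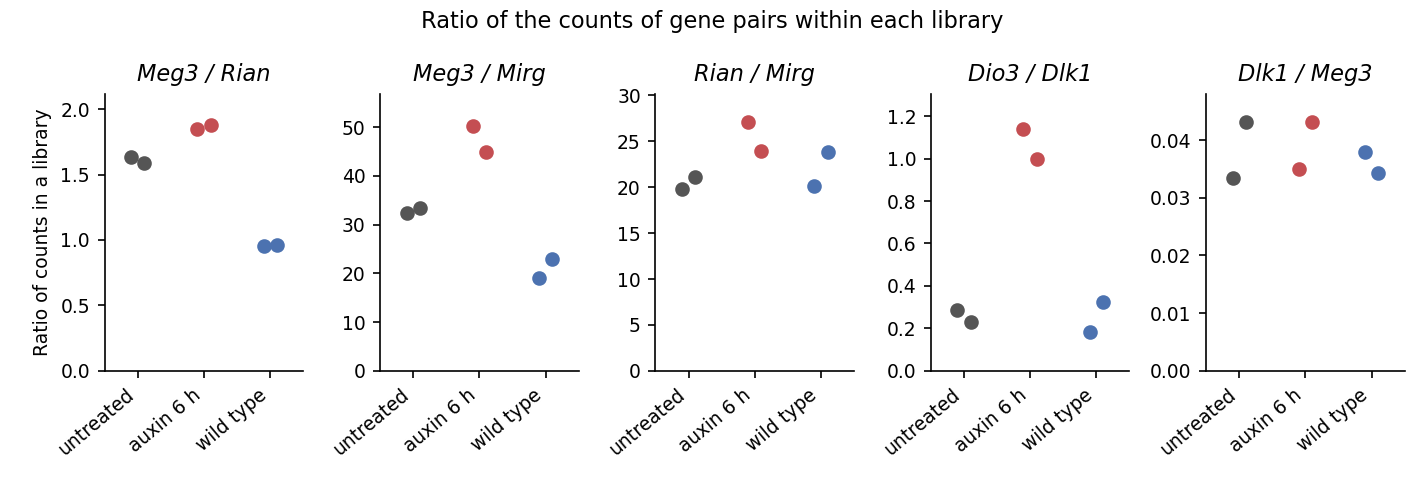
Ratio of the counts of gene pairs within each library (not corrected for gene length; each axis starts at 0), 2 libraries per group. Meg3 to Rian separates the 3 groups, Dio3 to Dlk1 sets the auxin-treated libraries apart at 1.14 and 1, and Dlk1 to Meg3 overlaps between all groups.

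Other genes of the locus were barely seen in these polyA libraries. The tables list 89 of them between Dlk1 and Dio3, of which 59 are microRNA and 23 small nucleolar RNA genes, and 46 had no count at all. No count of any of them exceeded 23, and 77 had fewer than 10 counts over all libraries. The 3 with the most counts all lie within Rian. The long noncoding RNA Gm26945 had 21 and 18 counts in untreated, 23 and 10 in auxin-treated and 8 and 6 in wild-type libraries, and was lower in wild-type cells by the edgeR quasi-likelihood test (log2 fold change -1.45, adjusted p = 0.0107). The small nucleolar RNA gene DQ267102 had 12 and 14, then 9 and 7, then 2 and 3 counts (log2 fold change -2.31 in wild-type cells, edgeR adjusted p = 0.00378). Gm24564, another small nucleolar RNA gene, had 10 and 8, then 10 and 1, then 7 and 14 counts. In wild-type cells 3 of the 89 genes were tested, with 2 called lower and 0 higher by edgeR, beside 30.7% and 29.9% of all tested genes. Both calls were lost with DESeq2, at adjusted p = 0.142 for Gm26945 and 0.0811 for DQ267102. The edgeR call of Gm26945 was also lost without untreated replicate 1 (adjusted p = 0.0669) or wild-type replicate 2 (0.108), and that of DQ267102 without wild-type replicate 1 (0.0538). Reads of these genes cannot be told apart from reads of Rian introns. After auxin 2 of the 89 genes were tested and neither was called, nor had either an unadjusted p under 0.05 or a call by DESeq2 (edgeR adjusted p = 0.708 for Gm26945 and 0.354 for DQ267102). Over all tested genes, edgeR called 4.2% after auxin.

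On either side of the locus, no gene passed the test after auxin. Of 18 flanking genes tested, 0 were called in either direction by edgeR and 0 by DESeq2, beside 4.2% of all tested genes by edgeR. At an unadjusted p under 0.05, 1 was higher and 4 were lower, beside 3245 of 16128 tested genes in either direction. The median log2 fold change of the 18 was -0.08. Begain, 384.6 kb before Dlk1, had 57 and 66 counts in untreated, 74 and 80 in auxin-treated and 107 and 99 in wild-type libraries (log2 fold change after auxin 0.22, edgeR adjusted p = 0.608). Ppp2r5c, a phosphatase regulatory subunit 166.0 kb after Dio3, had 1832 and 1859, then 2014 and 1787, then 3183 and 3285 counts (log2 fold change after auxin -0.06, edgeR adjusted p = 0.687). In wild-type cells 7 of the 18 flanking genes were called higher and 1 lower, beside 29.9% and 30.7% of all tested genes. Both neighbours were among the higher ones, opposite in direction to Dlk1 and Dio3 inside the locus, with log2 fold changes of 0.75 for Begain (edgeR adjusted p = 0.00583) and 0.82 for Ppp2r5c (edgeR adjusted p = 5e-07), though scaling to the mitochondrial mRNAs turned the sign of both. The lower one was Wars, a tryptophanyl-tRNA synthetase, with 4270 and 4318 counts in untreated and 1598 and 1566 in wild-type libraries (log2 fold change -1.43, edgeR adjusted p = 7.39e-09). Mok, a kinase gene after Dio3, rose by 0.97 on the log2 scale (edgeR adjusted p = 4.82e-06), a sign that the mitochondrial scaling also turned.

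Of 19 genes for factors known to set or keep imprints, among them Zfp57, Trim28, the DNA methyltransferases, the TET enzymes and subunits of Polycomb repressive complex, 2 were called lower and 0 higher by edgeR (1 and 0 by DESeq2, 7 and 0 at an unadjusted p under 0.05), where 1.64% of all tested genes were called lower by edgeR. Over all genes, 3245 of 16128 tested had an unadjusted p under 0.05, in either direction. The median log2 fold change of the 19 genes was -0.07. Tet1, an enzyme that oxidises methylated cytosine, had 4439 and 4644 counts in untreated and 3788 and 3747 in auxin-treated libraries (log2 fold change -0.37, edgeR adjusted p = 0.00888). Dppa3, which protects imprints in the early embryo and is known to affect Meg3 methylation in reprogrammed cells, had 308 and 327 against 271 and 226 counts (log2 fold change -0.46, edgeR adjusted p = 0.0442). The call of Tet1 was lost in 4 of 13 alternatives, at edgeR adjusted p = 0.179 without auxin-treated replicate 1 and 0.152 without replicate 2, and that of Dppa3 in 7 of 13, at 0.0864 and 0.354 without the same libraries and 0.287 with DESeq2. Over all alternatives the adjusted p ran from 1.01e-08 to 0.179 for Tet1 and from 0.00193 to 0.354 for Dppa3.

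In wild-type cells the same factors were higher more often than lower, with 14 of 19 called higher, 2 lower and a median log2 fold change of 0.47 beside the 29.9% of all genes called higher. Tet1 had 15289 and 16429 counts in the wild-type libraries, a log2 fold change of 1.81 or 3.52-fold (edgeR adjusted p = 2.18e-09). Uhrf1, which brings the maintenance methyltransferase to replicating DNA, was higher by 0.85 (edgeR adjusted p = 8.32e-07), and Tet2 by 0.79 (edgeR adjusted p = 2.8e-06), on the log2 scale. The signs of all 3 turned when libraries were scaled to the mitochondrial mRNAs.

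Among genes that handle thyroid hormone, the substrate of Dio3, 9 of 14 were tested. After auxin 0 were called by edgeR or DESeq2, beside 4.2% of all tested genes by edgeR. At an unadjusted p under 0.05, 0 were higher and 2 lower, beside 3245 of 16128 tested genes in either direction. The median log2 fold change of the 9 was -0.10. The other deiodinases were near 0, with 0 and 0, then 3 and 2, then 1 and 1 counts for Dio1 and a single count in 1 auxin-treated library for Dio2. Dio3 therefore had the most counts of the 3 deiodinases in each library. In wild-type cells 3 of the 9 were called higher and 2 lower, beside 29.9% and 30.7% of all tested genes. The receptor gene Thra was higher by 0.67 on the log2 scale (edgeR adjusted p = 0.000198) and Sephs2, which makes the selenium donor for selenoproteins such as Dio3, by 0.62 (edgeR adjusted p = 3.34e-05), and both signs turned under the mitochondrial scaling.

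Of 14 genes of the Notch pathway, to which Dlk1 is related, 1 was called higher after auxin and 0 lower by edgeR (0 and 0 by DESeq2). Over all tested genes, edgeR called 2.56% higher and 1.64% lower. At an unadjusted p under 0.05, 3 of the 14 were higher and 2 lower, beside 3245 of 16128 tested genes in either direction. The median log2 fold change of the 14 was -0.01. The called gene was the receptor gene Notch4, with 205 and 222 counts in untreated and 301 and 355 in auxin-treated libraries (log2 fold change 0.52, edgeR adjusted p = 0.0354), a call that was lost with DESeq2 (adjusted p = 0.249) and without auxin-treated replicate 2 (edgeR adjusted p = 0.359). Over 13 alternatives its adjusted p ran from 0.000547 to 0.524. Of 10 feeder markers tested in the same comparison, Col1a2 was called higher (log2 fold change 0.36, edgeR adjusted p = 0.0224) and the other 9 were not, while DESeq2 called 0 of them and the Col1a2 call was also lost without auxin-treated replicate 2 (edgeR adjusted p = 0.305), and their part in the result was not tested. In wild-type cells 10 of the 14 were called higher and 1 lower, beside 29.9% and 30.7% of all tested genes. The lower one was Dlk2, the paralogue of Dlk1, with 46 and 31 counts in untreated and 13 and 14 in wild-type libraries (log2 fold change -1.49, edgeR adjusted p = 0.00311), named here after its values were seen. The ligand gene Jag1 had 102 and 128 counts in untreated and 375 and 364 in wild-type libraries (log2 fold change 1.69, edgeR adjusted p = 7.67e-07), and the receptor genes Notch1 (0.73, edgeR adjusted p = 2.98e-06) and Notch3 (0.69, edgeR adjusted p = 1.86e-06) were also higher on the log2 scale, each with a sign that turned under the mitochondrial scaling.

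Relatives of Rtl1, genes derived from Ty3/gypsy retrotransposons, had no called member after auxin by edgeR or DESeq2, with 7 of 10 tested. By edgeR, 4.2% of all tested genes were called in that comparison. At an unadjusted p under 0.05, 1 relative was higher and 0 were lower, beside 3245 of 16128 tested genes in either direction. The median log2 fold change of the 7 was 0.26. Peg10, a paternally expressed imprinted gene of another chromosome, had 9629 and 7703 counts in untreated, 10916 and 11416 in auxin-treated and 4552 and 4819 in wild-type libraries. Its groups did not overlap and stood in the order of Dlk1 and Meg3, not of its relative Rtl1. The untreated libraries held 671.7 and 529.7 CPM and the auxin-treated ones 684.7 and 736.8 CPM. Libraries did not overlap for 22.3% of all tested genes in the higher direction after auxin. In wild-type cells this held for 40.5% in the lower direction. The log2 fold change of Peg10 was 0.26 after auxin (edgeR adjusted p = 0.16) and -0.88 in wild-type cells (edgeR adjusted p = 1.06e-05). Of the 6 tested in wild-type cells, Rtl8c was also lower (16 and 24 against 2 and 3 counts, log2 fold change -2.93, edgeR adjusted p = 0.000656) and Rtl10 was higher (log2 fold change 0.93, edgeR adjusted p = 0.00687), where the sign turned under the mitochondrial scaling and the call was lost with DESeq2 (adjusted p = 0.0589). Over all tested genes, edgeR called 29.9% higher and 30.7% lower in the wild-type comparison.

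**Figure D5:**
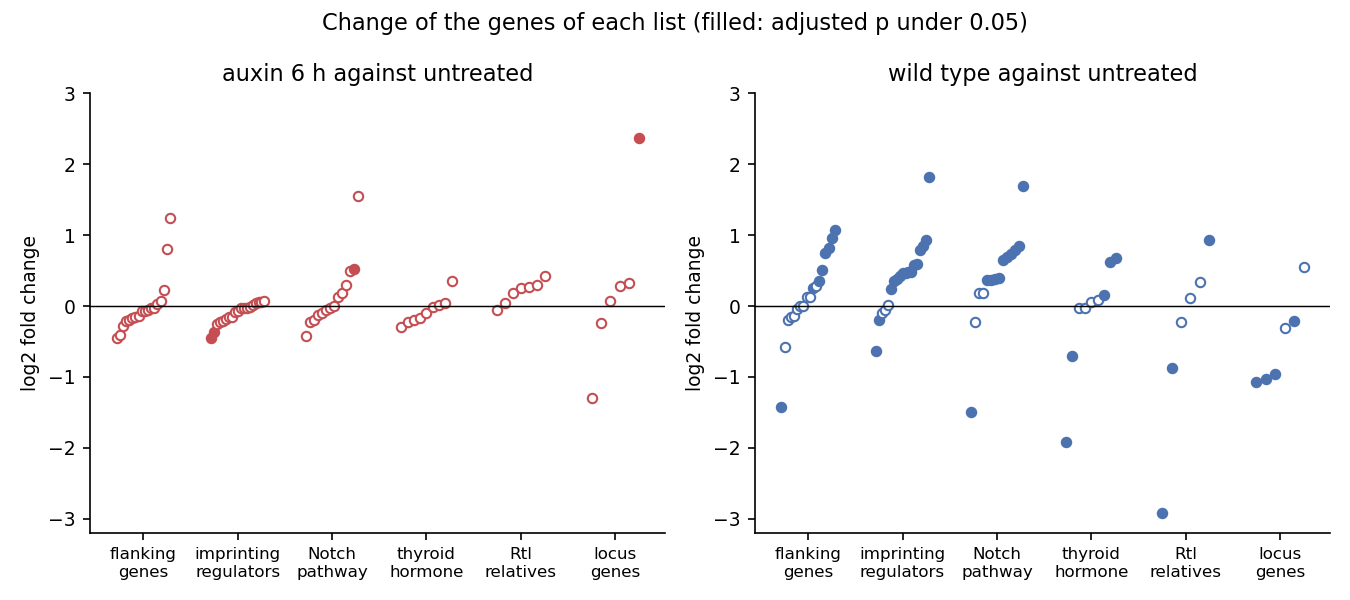
Log2 fold change (edgeR) of each tested gene of 5 lists and of the 6 locus genes, after auxin (left) and in wild-type cells (right), sorted within each list; filled points have an adjusted p under 0.05. After auxin Dio3 is the filled point at 2.37 and few list genes are filled, while in wild-type cells most imprinting regulators are filled above 0 and 4 locus genes are filled below 0, on a scaling by TMM that the mitochondrial mRNAs would shift by -2.10.

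The genes whose pattern over the 6 libraries was most like that of each locus gene were found by Pearson's r of log2(CPM + 1) among 15778 genes. The 6 points fall into 3 groups of 2, so a high r mainly says that the groups stand in the same order and proportion. Dio3 was closest to Sox8 (r = 0.996), with 21 and 23 counts in untreated, 74 and 74 in auxin-treated and 9 and 12 in wild-type libraries, then to Rhbdl1 (r = 0.995) and Cdnf (r = 0.994), and 187 genes had an r over 0.95 with it. Meg3 was closest to Itm2c (r = 0.9999), with 1239 and 1131, then 1475 and 1409, then 783 and 809 counts, followed by Neto2 and Krcc1. As many as 1895 genes had an r over 0.95 with Meg3 and 1567 with Dlk1, which had Pex6 and Jund among its closest. Rian was closest to Pls3, Ncoa2 and Sfmbt2, and Rtl1 to Zfp68, Fancb and Chp1, with 252 and 95 genes over 0.95. For Mirg only 8 genes were over 0.95, the closest being 1110054M08Rik (r = 0.980), Snx19 (r = 0.979) and R3hdm2 (r = 0.972), the last of which fell to 0.849 when library totals replaced TMM.

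Between the 6 genes themselves, r on the same scale was 0.965 for Meg3 and Dlk1 and 0.925 for Meg3 and Rian. Dio3 stood at 0.829 with Dlk1 and 0.838 with Meg3. Rtl1 was opposed to all but Mirg, with -0.965 against Dio3 and -0.859 against Dlk1. Mirg was near none of the others, its highest r being 0.463 with Rian. These are descriptions over 6 libraries that share groups, and they carry no test.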

How the data were processed

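PolyA RNA-Seq of 6 libraries was used, 2 per group. The authors sequenced paired reads of 150 bases and deposited whole-number counts per gene, not normalized, in one table for the degron libraries and one for the wild-type libraries. The submitters' processing notes name HISAT2 2.1.0, Salmon, HTSeq and DESeq2 on mm10, and the annotation release and strand setting are not given in the sources used here. The deposited tables also hold the authors' own fold changes and adjusted p-values, which were not used, and 2 columns of per-sample counts that matched no sample, which were not used either. Coordinates and exonic lengths were taken from GENCODE vM21 on the same build, in which 37607 of the 39017 genes were found.

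Each comparison was fitted on its 4 libraries in R 4.3.3 with edgeR 4.0.16 (glmQLFit and glmQLFTest, TMM, filterByExpr with a minimum count of 10, prior count 0.125), with Benjamini-Hochberg adjustment over all tested genes and a threshold of 0.05. Levels are CPM after TMM over all 6 libraries, so they differ slightly from the scale of the fits. SE is the standard error of the log2 fold change, its size divided by the square root of the quasi-likelihood F. Likeness used a pseudocount of 1 and genes averaging 10 counts or more. The functions were tested on simulated data. The locus genes, lists and motifs were chosen with earlier results or the sequences of these data known. Named list genes are those called in a comparison, at most the 3 with the smallest p-value per list, plus the nearest neighbours on both sides, and 2 genes that these rules name are not reported here. Alternatives were DESeq2 1.42.0, its size factors, library totals, mitochondrial scaling, a prior count of 5, a fit of all 3 groups together, a filter of 10 counts in all libraries compared, no filter, a block for the replicate number and the omission of each library.

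Replicates of a group were not copies of one library, since the chi-square of their counts per degree of freedom was 5.318, 2.208 and 2.478 in untreated, auxin-treated and wild-type cells. The study's methods call the replicates of its sequencing experiments biological, while the labels do not say which libraries came from separate cultures, so p-values measure only the spread between these libraries, which may be technical. Reads carried no molecular identifiers, and counting error is large for genes with few counts such as Rtl1.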

Additional observations from a re-analysis of the deposited data

How the results depend on the processing

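With 2 libraries per group and 8 to 39 counts per library, Rtl1 was the least well measured of the 6 genes, and fits without 1 library assume that the lone library varies like those of the other group. After auxin, 413 genes were called higher and 264 lower, against 128 and 108 with DESeq2, 167 and 52 scaled to mitochondrial mRNAs, 43 and 12 with no filter, and 142 to 1394 and 35 to 1330 with 1 library left out. Requiring 10 counts in every library gave 246 higher, and fitting all 3 groups gave 668 lower. Of the 6 locus genes, 1 was called higher and 0 lower, against 2 higher in the fit of all 3 groups and 1 to 3 higher without a library. Of the neighbouring, locus and pathway genes, 1 was called higher and 2 lower, against 0 and 1 with DESeq2, 0 and 0 with mitochondrial scaling or no filter, 1 lower with library totals or 10 counts in every library, 2 and 7 in the fit of all 3 groups, and 0 to 4 and 0 to 9 without a library. The cause was not tested.

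The labels give same-numbered replicates a shared number and no other link. The correlation of their deviations over genes was 0.07 in the auxin and -0.029 in the wild-type comparison. With 2 libraries per group, these values cannot show whether the libraries were paired. The replicate number as a block gave 1081 genes higher and 849 lower after auxin, 2 and 1 of the locus genes, and 5 and 9 of the neighbouring, locus and pathway genes.

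In the wild-type comparison, 4713 genes were called higher and 4842 lower, and 73 and 15235 scaled to mitochondrial mRNAs, a change that follows from the shift of all genes by that scaling. Of the locus genes 4 were called lower, against 2 with DESeq2. The log2 fold change of Mirg, which was not among the 4, ran from -0.45 to -0.15 when a library was left out. Of the other lists, 0 genes were called higher and 68 lower with mitochondrial scaling, and 6 lower with DESeq2. Called log2 fold changes that reversed under mitochondrial scaling were Ppp2r5c at -1.28, Mok at -1.13, Tet1 at -0.28, Uhrf1 at -1.24, Tet2 at -1.32, Sephs2 at -1.48, Thra at -1.43, Jag1 at -0.39, Notch3 at -1.41, Notch1 at -1.37, Rtl10 at -1.15 and Begain at -1.33. Rtl1, not called before, went from 0.55 to -1.54 and was called lower.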
